A study of Mus musculus with 12 samples.

Results

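The 10 genes described here, Fos, Fosb, Junb, Atf3, Egr1, Egr2, Egr3, Nr4a1, Ier2 and Btg2, belong to the immediate early response, and with the exception of Btg2 and Ier2 they are textbook DNA-binding transcription factors. They were taken by symbol, with every probe set that the array annotation pairs with that gene alone, and make up 10 of 18193 genes and 13 of 45037 probe sets in the table. Egr2, Egr3 and Btg2 had 2 probe sets each and the other 7 genes had 1.

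Immediate early genes are transcribed within minutes of a stimulus such as a growth factor, calcium entry, membrane depolarisation or cell stress, without new protein synthesis, and their transcripts are short-lived. Signals reach their promoters mainly through the serum response factor with its ETS partners and through CREB and related factors at cyclic AMP response elements. In the brain they are best known as reporters of neuronal activity, but cultured astrocytes also induce them on stimulation and on handling.

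RNA came from cultured mouse astrocytes on 12 one-colour Affymetrix arrays, with 3 arrays in each of 4 groups: adult cells on APdE9 brain sections, adult cells on wild-type sections, neonatal cells on APdE9 sections and neonatal cells on wild-type sections. All astrocytes, in every group, were from C57Bl/6j mice that express eGFP, so the cells themselves did not carry the APdE9 transgenes. They were grown from hippocampus and cortex of adults of 6 to 8 weeks or of neonates labelled as 3 d old (the protocol text gives another age for them). The cells were kept for 22 h on a section, then released with trypsin, and the green cells were collected by suction. APdE9 sections were from mice with a chimeric mouse and human APPSwe gene and PS1-dE9, each under the mouse prion protein promoter, and wild-type sections were from littermates. Material was pooled (n = 3) before RNA isolation. The labels call the arrays biological replicates. P-values here reflect how far such pools differed, some of which may be technical. Adult cells were isolated over Percoll and grown with G5 supplement, and neonatal cells were not, so that isolation and medium cannot be told apart from age.

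Each value is a log2 signal less the median of its probe set over the 12 arrays. Differences between arrays can therefore be read, but levels cannot, genes cannot be ranked by expression, and whether a cell type's markers were absent cannot be judged. In these bulk samples fewer cells of a type and less RNA per cell cannot be told apart. Values of genes with several probe sets are their mean. Array medians lay between -0.039 and 0.034, and none of the 6 damaged values in the table fell in a probe set of the 10 genes. Precision is limited by the 3 arrays per group.

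The promoter windows shown first are those of the 4 genes that passed the test between APdE9 and wild-type sections in adult cells. These genes are the centre of what follows. Each window runs from 250 bases before to 50 bases after the RefSeq transcription start (build GRCm38.p6), 5′ to 3′ on the gene's own strand. Capitals mark the short cyclic AMP response element TGACG or, on the other strand, CGTCA. The windows lie at chr12:85473640-85473939 (plus strand, Fos), chr7:19309996-19310295 (minus strand, Fosb), chr15:101266596-101266895 (plus strand, Nr4a1) and chr1:134079106-134079405 (minus strand, Btg2).

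Fos: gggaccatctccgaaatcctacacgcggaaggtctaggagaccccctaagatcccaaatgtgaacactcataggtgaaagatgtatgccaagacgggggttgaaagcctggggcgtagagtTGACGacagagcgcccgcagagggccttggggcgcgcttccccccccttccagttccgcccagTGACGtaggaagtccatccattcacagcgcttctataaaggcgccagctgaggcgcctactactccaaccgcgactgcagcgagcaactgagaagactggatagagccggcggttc

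Fosb: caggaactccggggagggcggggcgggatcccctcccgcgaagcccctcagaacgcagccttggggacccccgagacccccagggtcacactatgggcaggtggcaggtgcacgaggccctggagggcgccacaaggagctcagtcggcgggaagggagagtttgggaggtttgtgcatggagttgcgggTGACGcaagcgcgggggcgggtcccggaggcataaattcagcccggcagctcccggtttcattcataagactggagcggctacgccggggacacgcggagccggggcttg

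Nr4a1: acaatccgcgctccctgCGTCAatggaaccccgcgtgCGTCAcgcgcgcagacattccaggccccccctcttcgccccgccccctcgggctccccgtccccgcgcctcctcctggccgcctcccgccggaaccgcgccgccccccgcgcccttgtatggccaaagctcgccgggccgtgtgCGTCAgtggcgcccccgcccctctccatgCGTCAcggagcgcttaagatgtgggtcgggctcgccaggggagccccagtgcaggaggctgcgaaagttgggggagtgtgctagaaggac

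Btg2: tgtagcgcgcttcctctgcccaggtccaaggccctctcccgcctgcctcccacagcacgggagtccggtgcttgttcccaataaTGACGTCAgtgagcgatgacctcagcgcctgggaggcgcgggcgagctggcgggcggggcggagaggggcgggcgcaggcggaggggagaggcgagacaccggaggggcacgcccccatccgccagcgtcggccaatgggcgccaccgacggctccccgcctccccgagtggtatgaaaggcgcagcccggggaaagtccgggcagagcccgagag

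RefSeq windows were matched for 7 of the 10 genes (Fos, Fosb, Junb, Atf3, Egr2, Nr4a1 and Btg2). TGACG on either strand was found in at least 1 window of each of the 7, against 20.8% of 32851 mouse windows. Egr2 had 5 windows and the motif was in 3 of them. In Fos it began 129 and 66 bases before the start site, in Fosb 60 bases before it, and in Nr4a1 it appeared 4 times, at 233, 213, 69 and 40 bases before it. In Btg2 the matches at 166 and 163 bases before the start overlap, since both lie in the palindromic full element TGACGTCA, which 1.79% of windows held and none of the other 6 genes did. The binding sequence of the EGR factors, GCGNGGGCG on either strand, was in Fosb, Nr4a1 and Btg2, against 5.55% of windows. The AP-1 site TGANTCA was in none of the 7 (7.81% of windows) and the serum response CArG element in Egr2 alone (1.63% of windows). These are letter matches in a short window and not measured binding.

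Adult astrocytes on APdE9 sections had lower signals of Fos, Fosb, Nr4a1 and Btg2 than adult astrocytes on wild-type sections. The folds lay between 2.62 and 3.6. These 4 of the 10 genes passed the test (limma, adjusted p below 0.05 over all genes) and all were lower, whereas 9.40% of all genes were called lower, 8.26% higher and 17.7% in either direction. All 10 differences were below 0, as were 7286 of the 18193 genes, and the median difference was -0.99, against 0.05 over all genes.

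Fos and Fosb encode the FOS proteins that pair with JUN proteins to form AP-1. Fos was at -1.99, -0.81 and -0.27 in adult cells on APdE9 sections, against 0.15, 0.56 and 0.37 in adult cells on wild-type sections. All 3 APdE9 arrays were below all 3 wild-type arrays, but they were spread widely, and replicate 1 was by far the lowest of the 12. The difference was -1.39 ± 0.36 (limma, with its SE, 3 arrays a group, adjusted p = 0.0176), or 2.62-fold lower. Without adult APdE9 replicate 1 it was -0.91 (adjusted p = 0.0358), and leaving out adult wild-type replicate 2 gave -1.29 with an adjusted p of 0.0691.

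Fosb was at -0.37, -0.03 and -1.37 in adult cells on APdE9 sections, against 1.54, 1.64 and 0.40 in adult cells on wild-type sections. The groups did not overlap, and the array numbered 3 was the lowest of both. The difference was -1.78 ± 0.41 (limma adjusted p = 0.0101, n = 3 per group), or 3.44-fold lower, and its adjusted p was 0.0515 without adult wild-type replicate 2.

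Junb, a JUN family partner of the FOS proteins, was at 0.77, 0.30 and -0.46 in adult cells on APdE9 sections, against 0.78, 1.17 and -0.08 in adult cells on wild-type sections. These groups overlapped over most of their range. Its difference of -0.42 ± 0.37 did not pass the test (limma adjusted p = 0.493), with a 95% interval from -1.23 to 0.39.

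Atf3, a stress-induced member of the ATF and CREB family that often acts as a repressor, was at -0.70, -0.74 and -2.99 in adult cells on APdE9 sections, against 0.42, 1.05 and -1.53 in adult cells on wild-type sections. Replicate 3 was far below the other 2 arrays in both groups, and because of it the groups overlapped. The difference of -1.46 ± 0.72 was of the size seen for Fos but did not pass (limma adjusted p = 0.199, 95% interval -3.03 to 0.12). Without adult wild-type replicate 3 it was -2.21 (adjusted p = 0.0487).

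**Figure D1:**
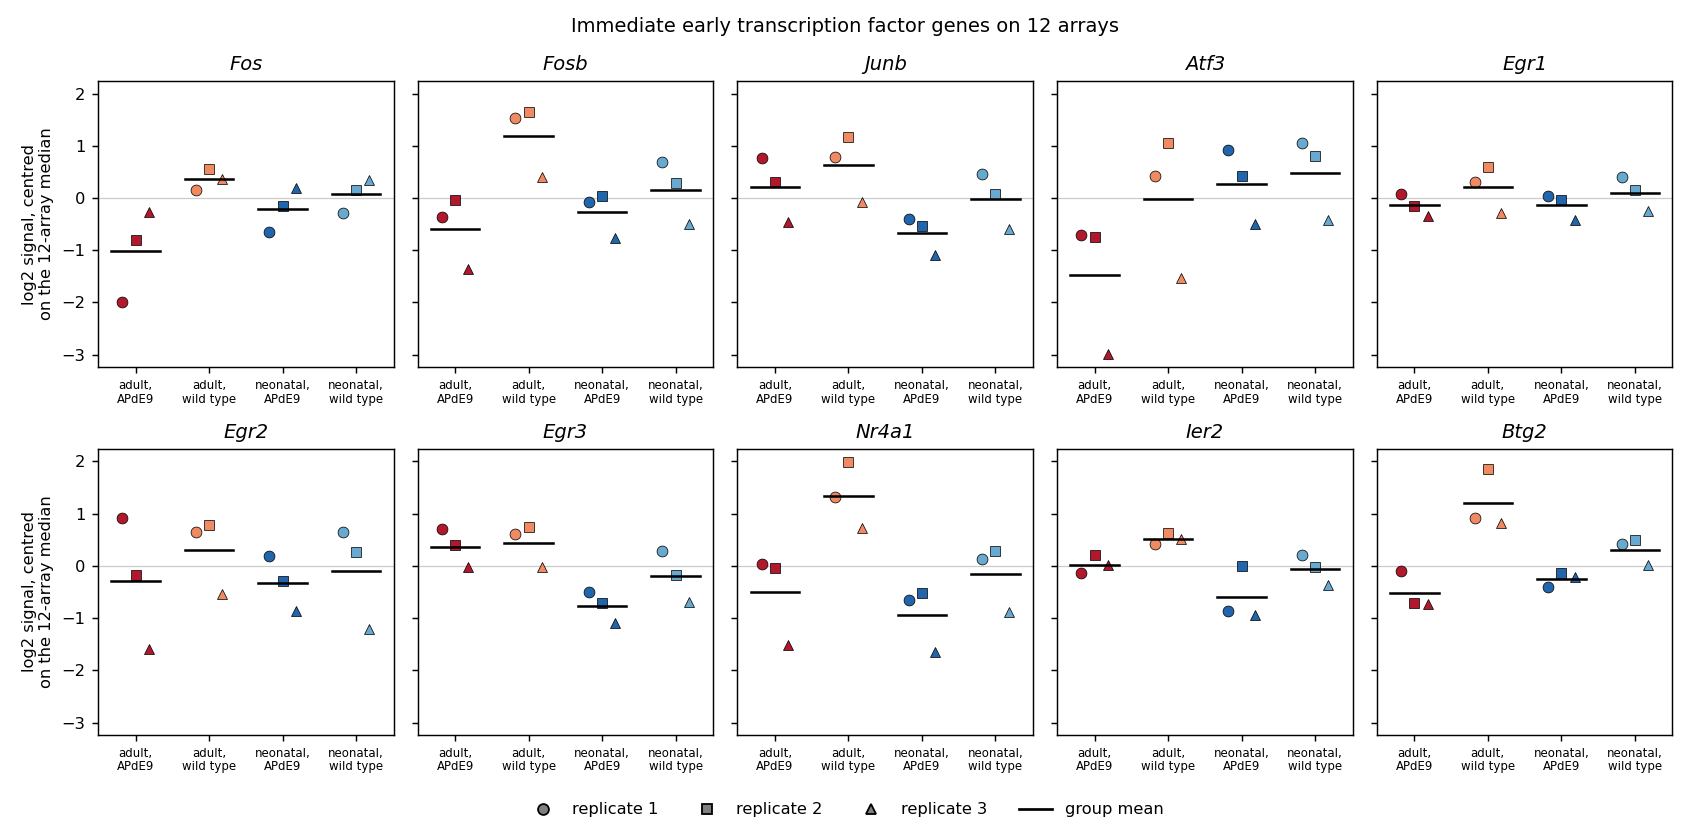
Deposited log2 signals (vertical axis, centred on the 12-array median of each probe set) of the 10 genes, by group on the horizontal axis, with a symbol per replicate number and a line at the group mean. For Fos, Fosb, Nr4a1, Ier2 and Btg2 the 3 adult APdE9 arrays lie below the 3 adult wild-type arrays, and triangles (replicate 3) are lowest in all 4 groups for 7 genes.

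Nr4a1 encodes an orphan nuclear receptor whose activity is set largely by how much of it is made. It was at 0.04, -0.04 and -1.52 in adult cells on APdE9 sections, against 1.31, 1.99 and 0.72 in adult cells on wild-type sections. No APdE9 array reached the lowest wild-type array. The difference of -1.85 ± 0.47 (limma adjusted p = 0.0172, n = 3 per group), or 3.6-fold lower, was the largest of the 10. Its adjusted p was 0.0812 without adult wild-type replicate 2, and 0.0567 without adult APdE9 replicate 3, where the difference was -1.34.

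Btg2, an antiproliferative coregulator that also promotes mRNA deadenylation, was at -0.10, -0.71 and -0.73 in adult cells on APdE9 sections, against 0.92, 1.86 and 0.83 in adult cells on wild-type sections. The groups did not overlap, with a gap from -0.10 to 0.83, but the wild-type arrays themselves ran from 0.83 to 1.86. The difference was -1.72 ± 0.25 (limma adjusted p = 0.000514, n = 3 per group), or 3.29-fold lower, and its 2 probe sets gave -1.83 (adjusted p = 0.000518 over probe sets) and -1.6 (adjusted p = 0.00192), where 6.98% of probe sets were called lower. Btg2 passed in each of the 24 fits compared, with differences between -1.92 and -1.39. Fos and Fosb passed in 23 of these fits and Nr4a1 in 22.

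Ier2, a nuclear protein of the early response, was at -0.14, 0.20 and 0.01 in adult cells on APdE9 sections, against 0.41, 0.62 and 0.52 in adult cells on wild-type sections. The groups did not overlap, yet the difference was small at -0.50 ± 0.22 and did not pass (limma adjusted p = 0.14). With it, 5 of the 10 genes had all APdE9 arrays below all wild-type arrays, as did 15.7% of all genes.

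The EGR factors, zinc finger proteins that bind GC-rich sites, all overlapped between the 2 kinds of section in adult cells. Egr1 was at 0.07, -0.16 and -0.34 on APdE9 sections, against 0.30, 0.59 and -0.28 on wild-type sections, a difference of -0.35 ± 0.22 (limma adjusted p = 0.325, 95% interval -0.83 to 0.14). Egr2 was at 0.91, -0.18 and -1.59 on APdE9 sections, against 0.64, 0.79 and -0.54 on wild-type sections, and its difference of -0.58 ± 0.61 had an interval from -1.92 to 0.75 (limma adjusted p = 0.569). Egr3 was at 0.71, 0.39 and -0.03 on APdE9 sections, against 0.61, 0.75 and -0.02 on wild-type sections, a difference of -0.09 ± 0.27 (limma adjusted p = 0.859, 95% interval -0.68 to 0.5). The interval of Egr1 leaves out the 2.62-fold fall of Fos, and that of Egr2 includes it. For Egr3 the mean takes in a nearly flat probe set, 1421486_at, and 1436329_at alone gave -0.31 ± 0.49, with an interval from -1.38 to 0.75.

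In neonatal cells all 10 genes again had differences below 0 between APdE9 and wild-type sections, but none passed the limma test without a replicate block. Of all genes 2.55% were called lower, 1.21% higher and 3.76% in either direction, and 8998 of the 18193 had a difference below 0. The median over the 10 genes was -0.49, against 0 over all genes. At an unadjusted p under 0.05 there were 2, Ier2 and Btg2, both lower, and 9.12% of all genes were lower at that threshold.

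Nr4a1 was at -0.66, -0.52 and -1.65 in neonatal cells on APdE9 sections, against 0.13, 0.28 and -0.89 in neonatal cells on wild-type sections. In each group replicate 3 was the lowest by a wide margin, and each APdE9 array was below the wild-type array of the same number. The same held for Junb, at -0.41, -0.53 and -1.09 on APdE9 sections, against 0.45, 0.08 and -0.60 on wild-type sections. Egr3 was at -0.50, -0.72 and -1.09 on APdE9 sections, against 0.28, -0.17 and -0.69 on wild-type sections, with the same order within each number.

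The differences were -0.78 ± 0.47 for Nr4a1 (limma adjusted p = 0.531), -0.66 ± 0.37 for Junb (0.481) and -0.58 ± 0.27 for Egr3 (0.352). Same-numbered neonatal arrays deviated together over the probe sets of the table. In a fit blocked on replicate number these 3 genes were called lower by limma, at adjusted p = 0.0102 for Nr4a1, 0.0251 for Junb and 0.0104 for Egr3. With this block 3.79% of all genes were called lower, so the count for the 10 genes rests on whether the numbers are read as pairs. Of the probe sets of Egr3, 1436329_at carried the difference (-1.01), while 1421486_at stayed between -0.23 and 0.18 over all 12 arrays.

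Btg2 was at -0.40, -0.13 and -0.22 in neonatal cells on APdE9 sections, against 0.41, 0.49 and 0.01 in neonatal cells on wild-type sections. It was the only one of the 10 whose neonatal groups did not overlap, and 10.4% of all genes had APdE9 arrays below wild-type arrays in this way. Its difference was -0.56 ± 0.25 (limma adjusted p = 0.327). Ier2 was at -0.86, -0.01 and -0.94 on APdE9 sections, against 0.20, -0.03 and -0.36 on wild-type sections. Here the second APdE9 array stood with the wild-type arrays, and the difference was -0.54 ± 0.22 (limma adjusted p = 0.246), or -0.84 (adjusted p = 0.0192) without that array.

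Fos, with a 2.62-fold fall in adult cells, was at -0.66, -0.15 and 0.19 in neonatal cells on APdE9 sections, against -0.28, 0.15 and 0.35 in neonatal cells on wild-type sections. The groups overlapped over most of their range, with a difference of -0.28 ± 0.36 (limma adjusted p = 0.851). Fosb was at -0.08, 0.03 and -0.76 on APdE9 sections, against 0.69, 0.28 and -0.50 on wild-type sections, a difference of -0.43 ± 0.41 (limma adjusted p = 0.767). For Atf3, Egr1 and Egr2 the differences were -0.21 ± 0.72, -0.24 ± 0.22 and -0.22 ± 0.61, each smaller than or close to its SE (limma adjusted p 0.962, 0.753 and 0.95).

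**Figure D2:**
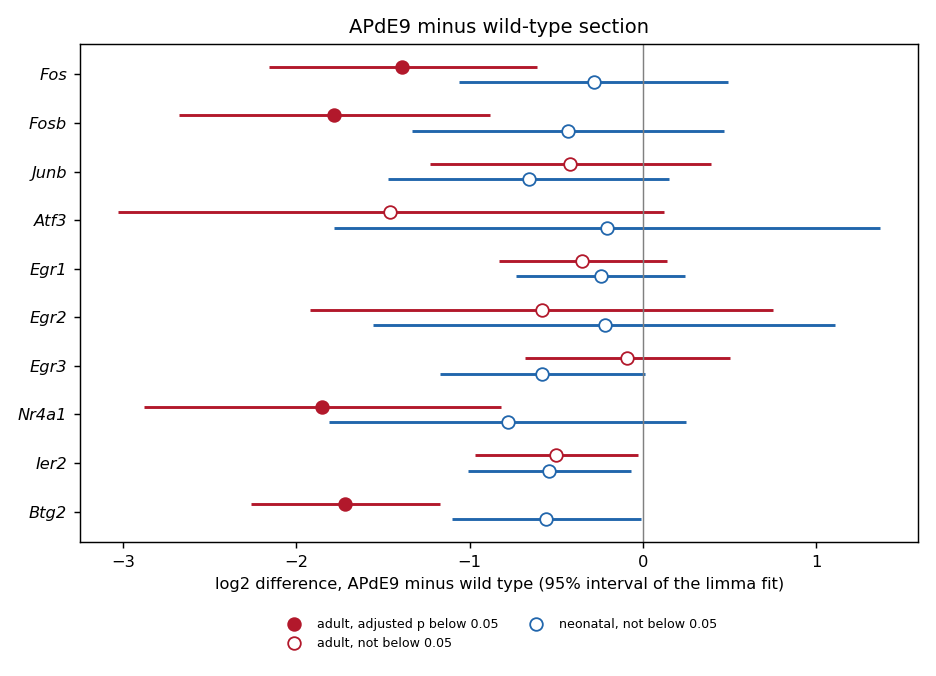
Log2 difference between APdE9 and wild-type sections (horizontal axis) for each of the 10 genes, in adult and neonatal cells, with the 95% interval of the limma fit without a replicate block. All 20 differences are below 0, and the filled points are the 4 adult differences with an adjusted p below 0.05.

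Whether the section difference itself differed between adult and neonatal cells was tested for each gene. None of the 10 passed, and 10.1% of all genes did (4.88% with the lower value in adult cells). At an unadjusted p under 0.05 there were 3, Btg2, Fosb and Fos, all with the lower value in adult cells, as had 10.8% of all genes at that threshold. The adult minus neonatal difference was -1.16 ± 0.36 for Btg2 (limma adjusted p = 0.0614), -1.35 ± 0.59 for Fosb (0.187) and -1.11 ± 0.50 for Fos (0.21). For Nr4a1 it was -1.07 ± 0.67 (0.384). Tested by probe set, 1416250_at of Btg2 passed at -1.43 ± 0.36 (adjusted p = 0.0356) and 1448272_at did not, at -0.89 (adjusted p = 0.222), where 3.36% of probe sets were called lower and 6.73% either way. Fos and Fosb were thus called in adult and not in neonatal cells, and Nr4a1 in neonatal cells only in the blocked fit, but without the block the difference between the ages was not called for any of these 3. Blocked on replicate number, where the pairing check did not hold over all 4 groups, that difference was called for 5 of the 10 genes, Fosb (adjusted p = 0.00106), Nr4a1 (0.00595), Fos (0.0261), Btg2 (0.0296) and Atf3 (0.0407). The share of all genes called for it in the blocked fit is not given here, so this count cannot be set against a background.

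Without a replicate block, few of the 10 genes passed the test between ages. On APdE9 sections Egr3 was higher in adult than in neonatal cells and the other 9 did not pass, where 11.7% of all genes were called higher, 11.9% lower and 23.5% either way. On wild-type sections Nr4a1 and Btg2 were higher in adult cells and the other 8 did not pass, where 14.9% of all genes were called higher, 15.2% lower and 30.1% either way. The counts of 1 and 2 in 10 are near or below these shares. The age comparisons use the same groups as the section comparisons, and the values given above serve both.

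All 3 values of Egr3 in adult cells on APdE9 sections exceeded all 3 in neonatal cells on APdE9 sections, as held for 20.8% of all genes. The difference was 1.13 ± 0.27 (limma adjusted p = 0.00873), or 2.19-fold higher in adult cells. It came from 1436329_at, which was at 1.24, 0.61 and -0.04 in adult cells on APdE9 sections, against -0.77, -1.51 and -2.0 in neonatal cells on APdE9 sections. That probe set differed by 2.03 (adjusted p = 0.0124 over probe sets, where 8.04% were called higher), and 1421486_at by 0.22 (adjusted p = 0.187). The probe set call was lost without neonatal APdE9 replicate 3 and without adult APdE9 replicate 1. As a gene, Egr3 passed in all 24 fits compared, with a limma adjusted p up to 0.0403.

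Same-numbered arrays on APdE9 sections also deviated together, and in a fit blocked on replicate number 6 of the 10 genes were called there. Egr3 (adjusted p = 1.11e-05), Junb (0.88 ± 0.15, limma adjusted p = 0.000817), Ier2 (0.63 ± 0.18, 0.0199) and Nr4a1 (0.43 ± 0.15, 0.0469) were higher in adult cells, where the block called 14.5% of all genes higher. Fos (-0.82 ± 0.20, adjusted p = 0.0108) and Atf3 (-1.76 ± 0.26, adjusted p = 0.000297) were lower in adult cells, where it called 13.4% of all genes lower. Without the block the adjusted p was 0.113 for Junb, 0.0541 for Ier2, 0.573 for Nr4a1, 0.127 for Fos and 0.106 for Atf3.

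On wild-type sections Nr4a1 was higher in adult than in neonatal cells by 1.5 ± 0.47 (limma adjusted p = 0.0297), or 2.83-fold, and Btg2 by 0.90 ± 0.25 (adjusted p = 0.0164), or 1.86-fold. The adult and neonatal groups did not overlap for either. The call of Nr4a1 was lost without neonatal wild-type replicate 3 (adjusted p = 0.113), without adult wild-type replicate 1 (0.0673) and without adult wild-type replicate 2 (0.129). The call of Btg2 was lost without neonatal wild-type replicate 3 (0.0631) and without adult wild-type replicate 2, where the difference was 0.57 (0.0541). Ier2 on wild-type sections had adult arrays wholly above neonatal arrays, as 21.7% of all genes did, with a difference of 0.58 ± 0.22 (limma adjusted p = 0.0607). Fosb differed by 1.03 ± 0.41 (0.0834), and Egr1 and Fos by 0.11 and 0.29 (0.794 and 0.622).

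**Figure D3:**
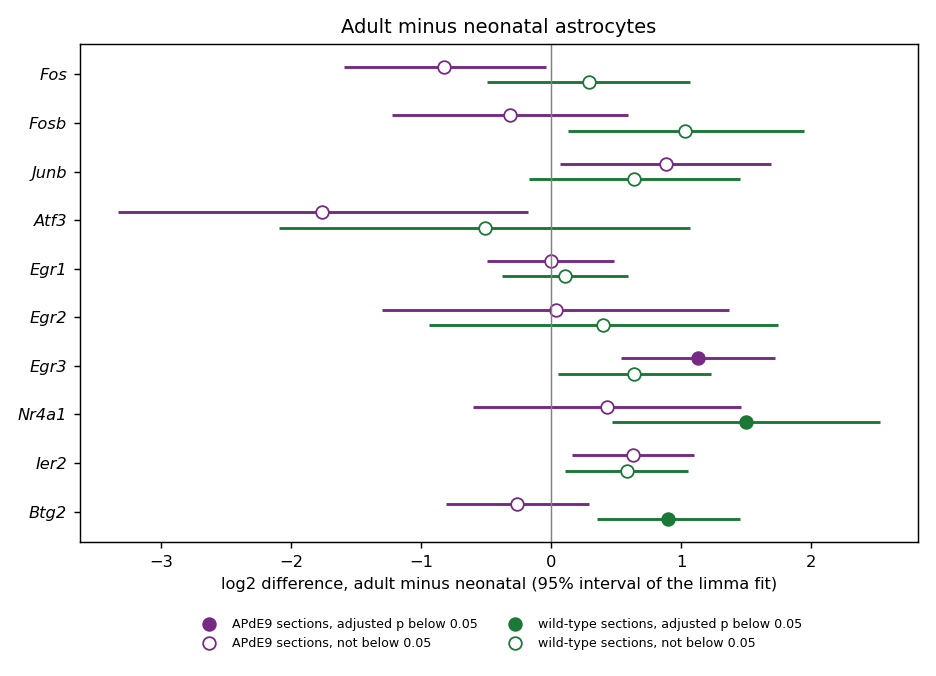
Log2 difference between adult and neonatal cells (horizontal axis) on APdE9 and on wild-type sections, with the 95% interval of the limma fit without a replicate block. Filled points have an adjusted p below 0.05: Egr3 on APdE9 sections, and Nr4a1 and Btg2 on wild-type sections.

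Ordered over the 4 groups, 9 of the 10 genes had their highest mean in adult cells on wild-type sections, and Atf3 had it in neonatal cells on wild-type sections. The lowest mean was in adult cells on APdE9 sections for 4 genes and in neonatal cells on APdE9 sections for 6. Egr1 is counted among the 6, but its mean was -0.14 in both APdE9 groups, so that its lowest group is not settled. Btg2 had the clearest order: the mean was -0.51 ± 0.36 in adult cells on APdE9 sections, 1.2 ± 0.57 in adult cells on wild-type sections, -0.25 ± 0.14 in neonatal cells on APdE9 sections and 0.31 ± 0.26 in neonatal cells on wild-type sections (SD, n = 3 each). Both wild-type groups stood apart from their neighbours in that order, and the APdE9 groups overlapped. For Nr4a1 (1.34 ± 0.64) and Ier2 (0.52 ± 0.11) adult cells on wild-type sections stood apart from the next group. For the other 7 genes every pair of neighbours overlapped.

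The 10 genes were among the more variable on these arrays within a group. The median residual SD of all genes was 0.134, and the 10 genes had 0.31 (Ier2) to 1.08 (Atf3), between the 94.3 and 99.9 percentiles. For Fosb, Junb, Atf3, Egr1, Egr2, Egr3 and Nr4a1 the array numbered 3 was the lowest in each of the 4 groups. Of the 10 genes, 8 were lowest on replicate 3 in adult cells on APdE9 sections (28.9% of all genes were), 8 in adult cells on wild-type sections (29.5%), 8 in neonatal cells on APdE9 sections (27.6%) and 9 in neonatal cells on wild-type sections (38.8%). Adult wild-type replicate 2 was the highest of its group for all 10 genes, as it was for 25.8% of all genes.

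Egr2 shows the size of this pattern. On the arrays numbered 1, 2 and 3 it was 1.2, 0.11 and -1.30 away from the mean of adult cells on APdE9 sections, and 0.34, 0.49 and -0.84 away from the mean of adult cells on wild-type sections. In neonatal cells the deviations were 0.51, 0.03 and -0.55 on APdE9 sections and 0.75, 0.37 and -1.11 on wild-type sections. The range inside each group was thus larger than any difference between group means of this gene.

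Fos ran against the others. It deviated by -0.97, 0.21 and 0.75 in adult cells on APdE9 sections, by -0.21, 0.20 and 0.01 in adult cells on wild-type sections, by -0.45, 0.06 and 0.40 in neonatal cells on APdE9 sections and by -0.35, 0.08 and 0.28 in neonatal cells on wild-type sections. Replicate 3 was thus its highest array in 3 of the 4 groups and replicate 1 its lowest in all 4. Over the 12 arrays its deviations correlated at -0.623 with the mean deviation of the other 9 genes, and at -0.8 to 0.06 with each of them. The 36 pairs without Fos correlated at 0.2 to 0.98, with a median of 0.86. These are descriptions over arrays that share their pools and processing with all other genes.

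**Figure D4:**
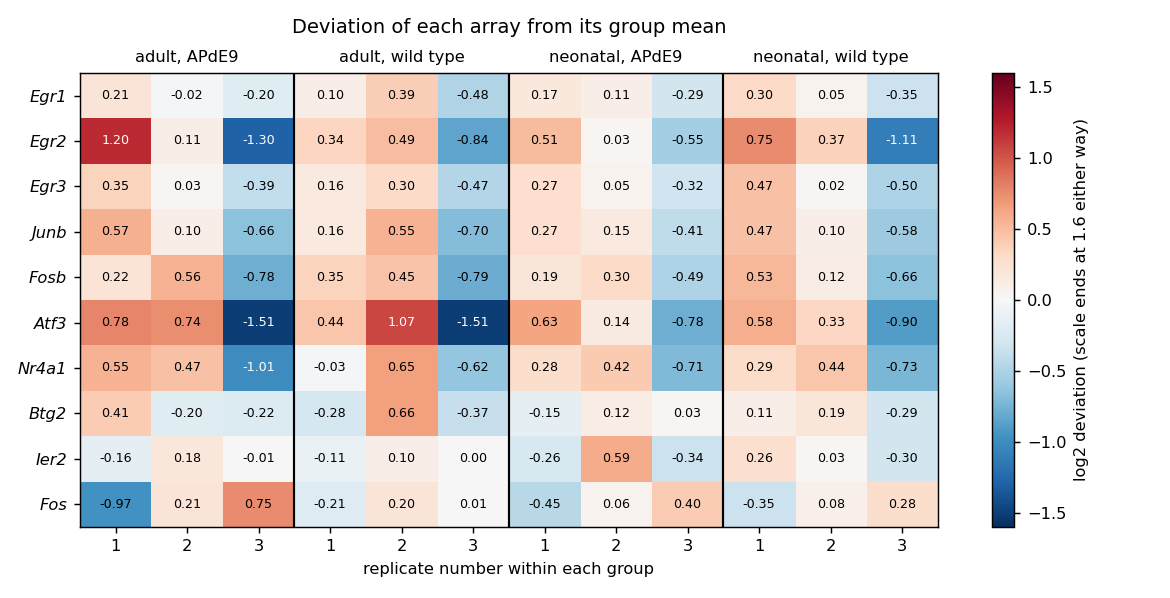
Deviation of each array from the mean of its group (colour and printed value, log2), for the 10 genes (rows) and the 3 replicate numbers of the 4 groups (columns). Replicate 3 is below 0 in all groups for Egr1, Egr2, Egr3, Junb, Fosb, Atf3 and Nr4a1, and above 0 in all groups for Fos.

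With only the arrays numbered 1 and 2, an alternative chosen after these deviations were seen, 5 of the 10 genes were lower in adult cells on APdE9 sections than on wild-type sections, where 7.45% of all genes were called lower. They were Fosb (adjusted p = 0.000274), Nr4a1 (0.000922), Atf3 (0.00332), Btg2 (0.0045) and Fos (0.0119). The falls of Fos, Fosb, Nr4a1 and Btg2 were thus called in this fit too. Since the arrays left out were picked for their deviations, it is not an independent check of those calls. The SE fell from 0.41 to 0.16 for Fosb and from 0.47 to 0.19 for Nr4a1. It went from 0.36 to 0.35 for Fos and from 0.25 to 0.29 for Btg2. Of the 10 genes, only Btg2 was called when adult wild-type replicate 2 was left out instead.

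Among related genes in adult cells, 5 of 24 other immediate early transcription factors were lower on APdE9 sections and none higher, with a median difference of -0.29. Of the 24, 18 were below 0. Over all genes, 9.40% were called lower and 8.26% higher in this comparison, which is the background for each list that follows. Klf2, a Krüppel-like factor that restrains inflammatory genes in endothelium, was at -2.80 ± 0.24 (limma adjusted p = 7.71e-06). Klf4, another factor of that family, was at -1.19 ± 0.30 (0.0157), Nfkbiz, an inducible nuclear regulator of NF-κB targets, at -0.99 ± 0.27 (0.0237), and Nr4a2, the receptor closest to Nr4a1, at -0.86 ± 0.26 (0.0389). Klf2 passed in all 24 fits compared, Klf4 in 21, Nfkbiz in 18 and Nr4a2 in 17. Leaving out adult wild-type replicate 2 gave adjusted p-values of 0.0735 for Klf4, 0.103 for Nfkbiz and 0.147 for Nr4a2, and without adult APdE9 replicate 3 it was 0.0588, 0.0552 and 0.117 for these genes. Nfkbiz also lost its call without adult wild-type replicate 3 (0.0596) or adult APdE9 replicate 1 (0.0746), and Nr4a2 without adult wild-type replicate 1 (0.119) or neonatal wild-type replicate 2 (0.0532).

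Of 23 other immediate early genes, which encode signalling and secreted proteins, 7 were lower in adult cells on APdE9 sections and none higher, with a median of -0.56. Rgs2, which shortens G protein signalling, was at -1.28 ± 0.13 (limma adjusted p = 3.07e-05), Ccn2, a matricellular growth factor, at -1.14 ± 0.14 (0.000152), and Dusp1, a phosphatase of MAP kinases, at -0.94 ± 0.14 (0.000575). These 3 passed in all 24 fits. Socs3, an inhibitor of cytokine receptor signalling, was at -0.89 ± 0.28 (0.0498) and passed in 15. Leaving out any 1 of adult wild-type replicates 1, 2 and 3 took its adjusted p to 0.0661, 0.0824 and 0.164, any 1 of adult APdE9 replicates 1 and 2 to 0.119 and 0.191, neonatal wild-type replicate 3 to 0.0594, and neonatal APdE9 replicate 1 to 0.0617.

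Of 15 kinases and factors upstream of the response that were analysed, 2 were higher in adult cells on APdE9 sections and none lower, with a median of 0.17. These were Map2k2, the ERK-activating kinase MEK2, at 0.55 ± 0.11 (limma adjusted p = 0.00395) and Rps6ka3, the ERK-dependent kinase RSK2, at 0.55 ± 0.08 (0.000476). Of 8 repressors of the response 1 was lower, Jdp2, a dimerisation partner that represses AP-1 sites, at -0.57 ± 0.15 (0.0189), with a list median of -0.02. The counts of 2 in 15 and 1 in 8 are near the shares of all genes. The adjusted p of Jdp2 was 0.0763 without adult wild-type replicate 1, 0.0614 without adult APdE9 replicate 1 and 0.0526 without adult APdE9 replicate 2.

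**Figure D5:**
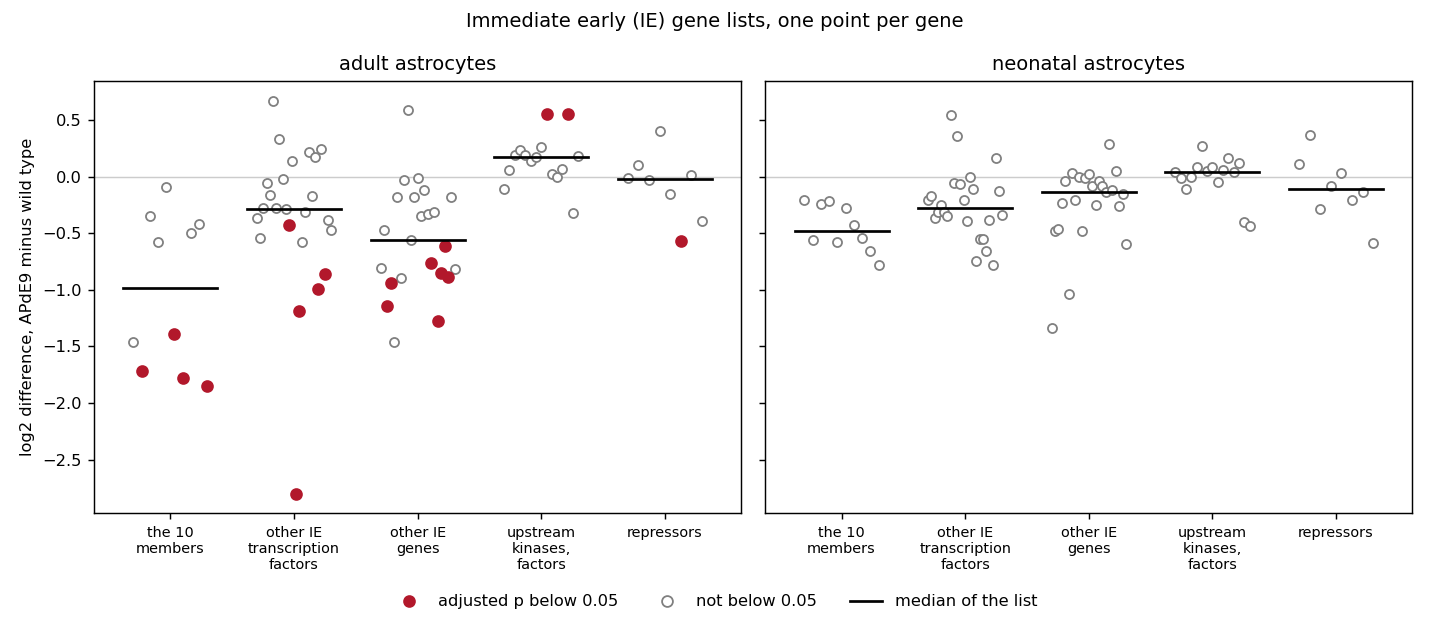
Log2 difference between APdE9 and wild-type sections (vertical axis) for the 10 genes and 4 lists of related genes, in adult (left) and neonatal cells (right), with a point per gene and a line at each list's median. In adult cells the filled points, with an adjusted p below 0.05, are all below 0 except for 2 upstream kinases, and in neonatal cells no point is filled.

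In neonatal cells none of these 4 lists had a called gene on APdE9 against wild-type sections, and their medians were -0.28, -0.14, 0.04 and -0.11 in the order above. In the fit blocked on replicate number 2 of the 24 transcription factors (Maff and Mafk) and 2 of the 23 other genes (Arc and Dusp5) were called lower. That fit called 3.79% of all genes lower.

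Between ages the counts of the related lists were mostly near the shares of all genes given above (11.7% higher and 11.9% lower on APdE9 sections, 14.9% and 15.2% on wild-type sections). On APdE9 sections Nr4a2 was higher in adult than in neonatal cells (1.02 ± 0.26, limma adjusted p = 0.0121) and Klf2 lower (-1.02 ± 0.24, 0.00764). On wild-type sections Nr4a2 (2.04 ± 0.26, adjusted p = 6.2e-05), Klf4 (1.57 ± 0.30, 0.00143) and Klf2 (1.4 ± 0.24, 0.000639) were all higher in adult cells. Nr4a2 on APdE9 sections had an adjusted p of 0.0543 without neonatal APdE9 replicate 3 and of 0.0592 without adult APdE9 replicate 2, and Klf2 there had 0.0519 with quantile normalization. Among the 23 other genes, Ptgs2, the inducible cyclooxygenase, was higher in adult cells on both sections (2.23 ± 0.35, adjusted p = 0.000488 on APdE9 and 2.40 ± 0.35, 0.000204 on wild-type sections), and Socs3 lower on both (-1.69 ± 0.28, 0.000782 and -1.06 ± 0.28, 0.013). The wild-type value of Socs3 was at an adjusted p of 0.0538 without neonatal wild-type replicate 1, 0.0516 without adult wild-type replicate 1 and 0.0531 without adult wild-type replicate 2. In all, 1 of the 24 factors was higher and 1 lower on APdE9 sections, and 3 higher and none lower on wild-type sections. With the replicate block 6 were higher and 1 lower on APdE9 sections, where it called 14.5% of all genes higher and 13.4% lower. Of the 23 other genes 1 was higher and 4 lower on APdE9 sections, and 3 higher and 1 lower on wild-type sections. Of the 8 repressors 2 were higher and none lower on APdE9 sections (4 and none with the block), and 1 was higher and 1 lower on wild-type sections. Of the 15 kinases and factors 1 was higher and 1 lower on APdE9 sections, and 1 higher and 2 lower on wild-type sections.

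Markers of other cell types moved with the same comparisons. In adult cells 5 of 12 microglia markers were higher on APdE9 sections and 1 lower, and the mean of the list was -1.64 to -1.52 over the APdE9 arrays, against -2.43 to -2.16 over the wild-type arrays. Of 7 oligodendrocyte markers 5 were higher (-0.01 to 0.15 against -0.68 to -0.62), and of 8 pericyte and fibroblast markers 4 were lower and 1 higher (-0.11 to 0.17 against 0.63 to 0.88). Of 10 astrocyte markers 5 were higher and 1 lower (-0.67 to -0.64 against -0.81 to -0.76). Of 8 neuron markers 2 were lower (-0.28 to -0.07 against 0.02 to 0.15), and of 7 endothelial markers none was called (0.10 to 0.26 against -0.05 to 0.07). In neonatal cells on APdE9 sections 3 of the 12 microglia markers were higher (5 with the replicate block; 2.05 to 2.21, against 1.47 to 1.98 on wild-type sections) and 4 of the 10 astrocyte markers lower (0.56 to 0.70 against 1.03 to 1.09). There 2 oligodendrocyte markers were higher and 2 lower, 3 pericyte and fibroblast markers higher and 1 lower, and no neuron or endothelial marker was called. Between ages 11 of the 12 microglia markers were lower in adult than in neonatal cells on both sections, and of the 10 astrocyte markers 6 were lower and 1 higher on APdE9 sections and 8 lower and 2 higher on wild-type sections. On wild-type sections, where Nr4a1 and Btg2 were higher in adult cells, 4 of the 8 pericyte and fibroblast markers were also higher and none lower (0.63 to 0.88 in adult cells, against -0.61 to -0.02 in neonatal cells). Of these 8, 1 was higher and 1 lower on APdE9 sections. Of the 7 endothelial markers 3 were higher and 2 lower on APdE9 sections, and 2 higher and 3 lower on wild-type sections. Of the 7 oligodendrocyte markers 2 were higher and 2 lower on APdE9 sections, and none higher and 2 lower on wild-type sections. Of the 8 neuron markers 1 was higher and 1 lower on each section. The part of these shifts in the values of the 10 genes was not tested.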

How the data were processed

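Signals of 12 arrays were computed with RMA, per the submitters' processing notes, with no version given. The deposited values of 8 arrays are taken as log2 signals, though no source used here gives the log base. The deposited columns of 4 arrays were recorded as a score, because 6 of their values exceed 100 and seem to have lost a decimal point. Only those 6 values were treated as missing. All other values of the 4 arrays were analysed as centred log2 signals, in the same way as the 8 arrays. In 45101 of 45101 probe sets the 12-array median was 0 within 1e-06, so each had been centred. Signs were taken as deposited.

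Of 45101 probe sets 64 controls were left out. Of the rest, 34945 had a single gene in the supplied annotation, 932 several and 9160 none, and 34741 of the first kind matched RefSeq by Entrez gene identifier. Single-gene probe sets of a gene were averaged. The 4 group means were estimated over all 12 arrays for 18193 genes with limma 3.58.1 in R 4.3.3 (and the data.table package, version 1.17.8; prior degrees of freedom 3.97, residual 8), in 5 comparisons, with Benjamini-Hochberg adjustment and a threshold of 0.05. The same was done over 45037 probe sets. The code was tested on simulated data. Figures were drawn with matplotlib 3.10.9.

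The 10 genes and the lists were chosen with earlier results of these data known. Beyond the 10, up to 4 called genes of each list and comparison were named, by the size of the difference. Maff, Mafk, Arc and Dusp5 were named outside this rule, after their values were seen. The fit reported as the main one did not pair arrays in any comparison, and a block on replicate number was an alternative. The pairing check asked whether same-numbered arrays deviated together over probe sets. It held where the correlation was over 0.1 in all 3 pairs of a comparison. This was so for APdE9 against wild-type sections in neonatal cells (0.239, 0.183 and 0.477) and age on APdE9 sections (0.46, 0.266 and 0.503). The main counts of these comparisons therefore leave this pairing out. The alternatives tried were array weights, quantile normalization, robust variance, median centring, an SD filter that dropped 40% of features, other probe set rules, restored decimal points, only the arrays compared, the replicate block, a threshold of 0.01, only the arrays numbered 1 and 2, and leaving out each array. Raw array images were not used here.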

Additional observations from a re-analysis of the deposited data

Results flagged for a closer look

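Flagged here are the genes among the 10 and the related lists whose section difference itself differed between adult and neonatal cells in the limma fit. Probe set 1416250_at of Btg2 had a difference of section effects, adult minus neonatal, of -1.43 ± 0.36 (adjusted p = 0.0356 over probe sets). Its other probe set, 1448272_at, did not pass (0.222), nor did Btg2 as a gene (limma adjusted p = 0.0614). The call of 1416250_at was lost with quantile normalization and without any 1 of neonatal wild-type replicates 1, 2 and 3. It was also lost without replicate 2 or 3 of the neonatal APdE9 or of the adult APdE9 arrays. For Klf2 the difference of section effects was -2.42 ± 0.34 (limma adjusted p = 0.000913) and for Rgs2 -1.57 ± 0.19 (0.000265). Both passed in all 23 fits that gave a value. Dusp1 was at -0.71 ± 0.20 (0.0415) and passed in 13 of 23 fits, with the adjusted p as high as 0.138. The kinase genes Map2k2 at 0.60 ± 0.15 (0.0289) and Rps6ka3 at 0.42 ± 0.11 (0.0336) had the higher value in adult cells, and passed in 13 and 9 of 23 fits. Of the 24 other transcription factors 1 passed this test, of the 23 other immediate early genes 2, of the 15 upstream kinases and factors 2 and of the 8 repressors none, where 10.1% of all genes passed. With 3 arrays per group no array was tested as an outlier.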

How the results depend on the processing

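Over 1190 values of the 10 genes under the alternatives, 1089 kept their direction and side of the threshold, 53 became called, 15 lost a call and 33 changed sign. Counts are given in a fixed order. First come APdE9 against wild-type sections in adult cells (adult section) and in neonatal cells (neonatal section), then their difference. Age on APdE9 and age on wild-type sections follow. Where the number of all genes called in a fit is not given, its count of the 10 has no background and describes that fit only. As reported they were 3213, 684, 1831, 4279 and 5482 genes, 4, 0, 0, 1 and 2 of the 10 genes, and 5, 0, 1, 1 and 2 of the 13 probe sets. Below 0.01 they were 1844, 248, 818 and 2850 genes (first 4), 1 of the 10 in the adult section and 0 in age on wild-type sections, and 2, 0, 0 and 0 probe sets (neonatal section left out). With array weights 2160 genes were called in neonatal section and 3427 in the difference, with 1, 2 and 5 of the 10 (last 3) and 6 probe sets (the last). The arrays numbered 1 and 2 gave 244, 1173, 3394 and 4661 genes (last 4), 1, 3 and 5 of the 10 (last 3), and 3 and 5 probe sets (last 2). Fitting only the arrays compared gave 272 genes in neonatal section. The SD filter gave 1 and 2 of the 10 in the difference and age on APdE9, and 4 probe sets in age on wild-type sections. The probe set with the largest SD gave 1 of the 10 in the difference. Quantile normalization gave 2 of the 10 in age on APdE9 and 3, 0 and 1 probe sets in adult section, the difference and age on wild-type sections. Robust variance gave 1 of the 10 and 1 probe set in age on wild-type sections (Nr4a1 at adjusted p = 0.0572). With the replicate block 5, 3, 5, 6 and 6 of the 10 were called, and 3, 4, 5 and 7 probe sets (last 4). Shares of all genes with the block are given above only for neonatal section and age on APdE9 sections. The pairing check did not hold for adult section, the difference or age on wild-type sections. Leaving out 1 array gave 2174 to 3382, 263 to 761, 1208 to 1811, 3488 to 4386 and 4426 to 5499 genes. The same fits gave 1 to 5, 0 to 1, 0 to 1, 1 to 3 and 0 to 4 of the 10, and 2 to 6, 0 to 1, 0 to 1, 0 to 2 and 1 to 5 probe sets. The adult count was 1 (Btg2) without adult wild-type replicate 2. The count for age on wild-type sections was 0 without neonatal wild-type replicate 3 or adult wild-type replicate 2, 1 without adult wild-type replicate 1, and 4 without neonatal wild-type replicate 1 or adult wild-type replicate 3. That for age on APdE9 sections was 3 without adult APdE9 replicate 3, that for neonatal section 1 without neonatal APdE9 replicate 2, and that for the difference 1 without adult wild-type replicate 3 or adult APdE9 replicate 1. Sign changes were all of uncalled values. Egr1 in age on APdE9 sections was 0.02 with quantile normalization and 0.03 with array weights, and Egr2 in the difference was 0.15 on the arrays numbered 1 and 2. When 1 array was left out the ranges were, for adult section, -1.18 to 0.07 (Egr2) and -0.32 to 0.10 (Egr3). They were, for neonatal section, -0.66 to 0.18 (Atf3) and -0.78 to 0.15 (Egr2). For the difference they were -0.35 to 0.09 (Egr1), -0.96 to 0.29 (Egr2), -0.12 to 0.34 (Ier2) and -0.11 to 0.57 (Junb). For age on APdE9 sections they were -0.14 to 0.10 (Egr1), -0.56 to 0.69 (Egr2) and -0.60 to 0.07 (Fosb), and for age on wild-type sections -1.04 to 0.25 (Atf3), -0.09 to 0.35 (Egr1) and -0.16 to 0.82 (Egr2). The cause of these changes was not tested, except that fits without an array, with 8 arrays or with the arrays compared have fewer samples. Levels over background could not be read from centred values.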

Other observations

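Genes whose values followed the mean of the 10 genes most closely over the 12 arrays were Cxcl1 (Pearson r = 0.947), Dennd4a (0.929), Msmo1 (0.918), Thbs1 (0.911) and Klf6 (0.907). Cxcl1 encodes a chemokine that draws neutrophils, Msmo1 an enzyme of cholesterol synthesis, Thbs1 a secreted matrix protein and Klf6 an inducible Krüppel-like factor. When the group means were removed, so that only differences between arrays of a group were left, the closest were Ifrd1 (0.983), Tnfaip3 (0.959), Dusp8 (0.959), Plagl1 (0.958) and Cxcl2 (0.958). Tnfaip3 encodes an inhibitor of NF-κB signalling and Dusp8 a phosphatase of MAP kinases. The 2 sets of names did not overlap. Before ranking, the 10 genes and RIKEN, predicted and clone-like names were left out, by a name pattern that can also drop named genes. The correlations are a description over 12 arrays in 4 groups, picked as the highest of the genes kept, and say nothing of shared control.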
